A study of Mus musculus with 139 samples.

Results

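The microRNA (miRNA) genes named Mir297, Mir466, Mir467 and Mir669 were followed across 11 mouse tissues. Members were the rows of the deposited count table with the class miRNA whose name starts with 1 of these 4 names. There were 81 such rows among 2207 miRNA rows and 6114 rows in all. They held 15930 counts over 134 libraries, or 0.00148% of all counts and 0.00214% of miRNA counts. At least 1 count was present for 58 rows, and 23 rows were at 0 in every library. Of the 58, 22 rows had at least 100 counts and 36 rows had between 1 and 99.

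The libraries came from untreated wild-type C57BL/6J mice, an inbred laboratory strain, at 3 months of age. The column names mark animals 1 to 10 as female and animals 11 to 14 as male. Spleen, brain, kidney and muscle had 14 libraries each; lung, heart and liver had 13; pancreas, bone marrow and intestine had 12; and 3 libraries were labelled testis. Animals 11 to 14 formed 1 library pool, named N541. For animals 1 to 10, the spleen, lung, kidney, liver and pancreas libraries were in pool N467, and bone marrow, brain, heart, intestine and muscle were in pool N469. Sex, animal set and pool therefore cannot be told apart within a tissue.

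Most members lie in 1 intron of Sfmbt2, a gene for a Polycomb group protein. This cluster is a rodent array of repeated hairpins, known mainly from the placenta, where the paternal copy of Sfmbt2 is expressed, and from embryonic stem cells. A miRNA is cut from such a hairpin and is loaded on an Argonaute protein, and it recognises messenger RNAs mainly through its seed, the bases 2 to 8 of the mature strand. Many mature strands of these families are built of short CA or UG repeats.

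Mature sequences were found for 8 of the 81 members in a RefSeq table of build GRCm38.p6. Mir466q is shown because its tissue pattern departed from that of the intron rows. Mir466i, Mir466j and Mir466k are shown to contrast seeds within a shared name, and Mir669n, with 0 counts, as a row of another name. Sequences run 5′ to 3′ and capitals mark the seed.
Mir466q: gUGCACACacacacauacgu
Mir466i: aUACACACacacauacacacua
Mir466j: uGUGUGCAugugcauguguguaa
Mir466k: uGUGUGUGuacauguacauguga
Mir669n: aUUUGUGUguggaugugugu
The first pair are C and A rich, with longest runs of alternating C and A of 12 bases in Mir466q and 11 in Mir466i. The last 3 are U and G rich, with longest runs of alternating U and G of 7, 9 and 8 bases. The 8 seeds were all different, although 4 of the 8 rows carry the name Mir466. None of the 8 rows lies in the Sfmbt2 intron, so these seeds do not describe the intron rows. Mir466q had 139 counts, and none of the other rows with a sequence had more than 4. The mature Mir466q lies at chr3:28419988-28420007 on the plus strand, and its row lies within Tnik, a kinase gene on the same strand.

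The Sfmbt2 intron held nearly all of the signal. In GRCm38, Sfmbt2 (ENSMUSG00000061186.15) spans chr2:10370510-10595253 on the plus strand, and 71 rows lie in intron 10 of its transcript of 23 exons. No row overlaps an exon. The 71 rows cover a stretch of 51617 bases, from position 10466663 to 10518279, and held 15761 counts, or 98.9% of the member counts. The other 10 rows lie on chromosomes 3, 5, 7, 9, 10, 11 and 13 and held 169 counts, of which Mir466q had 139.

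A few rows carried most counts. Mir669c (chr2:10509296-10509404) had 2766 counts, Mir467e (chr2:10505721-10505807) had 2697 and Mir467c (chr2:10473931-10474027) had 2177. These 3 rows made up 48.0% of the member counts, and the 12 most counted rows made up 82.2%. The next 9 were Mir669o with 1029 counts, Mir467d with 886, Mir466d with 740, Mir669d with 533, Mir669m-1 with 504, Mir669d-2 with 499, Mir669b with 465, Mir466n with 433 and Mir669m-2 with 370. Rows ranged from 54 to 127 bases in length. Per base of row, Mir467e led with 31.0 counts, ahead of Mir669c with 25.4 and Mir467c with 22.4, so the order of the first pair depends on row length. By family, the 30 Mir669 rows held 44.8% of the counts, the 17 Mir467 rows 36.2%, the 28 Mir466 rows 13.3% and the 6 Mir297 rows 5.68%.

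Rows with many copies of a name had almost no counts. The 10 Mir467a rows had 4 counts together, the 8 Mir466b rows had 23, and the 12 Mir669a rows had 74, all in Mir669a-3. In the intron, the 30 rows whose name has 8 or more copies had 101 counts, and the 27 rows with a name of their own had 12768. The copied rows sit together: Mir467a rows recur with a median spacing of 2462 bases, and Mir669a rows with a median spacing of 2457 bases. Between the first and the last Mir467a row, 33 rows spread over 27010 bases held 536 counts, 291 of them in Mir466c-1, and 16 of these rows were at 0. The 16 rows before that stretch held 4701 counts, and the 22 rows after it held 10524. How reads that match several rows were counted is not given in the sources used here. Its part in the low counts of copied rows was not tested.

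**Figure D1:**
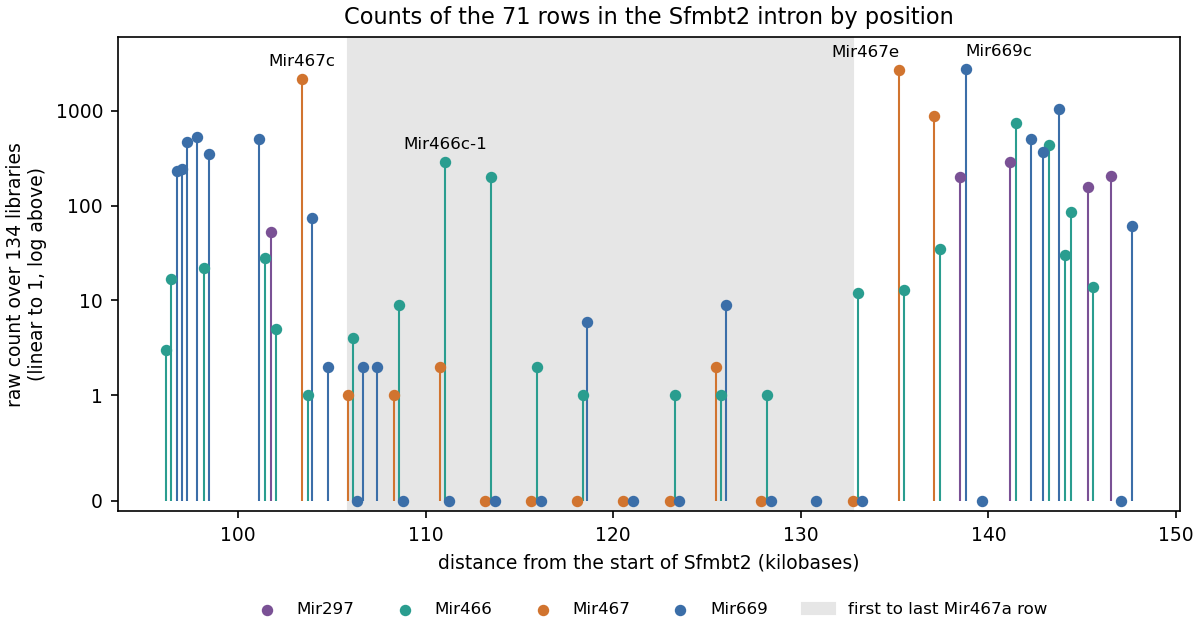
Raw counts of the 71 rows in the Sfmbt2 intron, added over 134 libraries (vertical axis, linear to 1 and logarithmic above), against distance from the start of Sfmbt2 in kilobases (horizontal axis). Points are rows coloured by family, and the grey band runs from the first to the last Mir467a row, where 33 rows held 536 counts, while Mir467c stands before the band and Mir467e and Mir669c after it.

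Spleen had the highest summed level of the members. Levels scaled to library depth (CPM) are given in 2 ways: raw CPM, over all counts of a library, and TMM CPM, after further scaling by the trimmed mean of M-values. The 14 spleen libraries held 8374 member counts, or 52.6% of the total. Their raw CPM sum ran from 41.6 to 165 with a median of 60.4, and the TMM CPM sum was 46.3 ± 26.7 (SD, n = 14). In bulk tissue, fewer cells of a type and less RNA per cell cannot be told apart.

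Brain and bone marrow followed. Brain had 1827 member counts, raw CPM sums from 23.4 to 71.6 and a TMM CPM sum of 21.8 ± 7.06 (SD, n = 14). Bone marrow had 2196 counts, raw CPM sums from 7.17 to 51.3 and a TMM CPM sum of 15.4 ± 4.46 (SD, n = 12). The lowest spleen library lay below the highest brain and bone marrow libraries, so the raw sums overlapped. Within an animal, the spleen sum was above the brain sum in 13 of 14 animals on the raw scale, with a median ratio of 1.75, and in 14 of 14 on the TMM scale, with a median ratio of 1.66. It was above the bone marrow sum in 12 of 12 animals on both scales, with a median ratio of 2.06 on the raw scale. In the female animals, the spleen libraries were in a different pool from the brain and bone marrow libraries. Their ratios therefore compare pools as well as tissues, and the sums carry no correction for pool.

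The remaining tissues were lower. Lung had 1664 counts and a TMM CPM sum of 8.28 ± 2.37 (SD, n = 13). Heart, kidney, intestine, liver and muscle had mean TMM CPM sums of 6.88, 6.74, 6.24, 5.28 and 4.53, and the ranges of these 5 tissues overlapped one another. The 3 libraries labelled testis held 71, 52 and 31 member counts in totals of 33076709, 34095704 and 21807492 counts, which gave raw CPM sums of 2.15, 1.53 and 1.42. They were the deepest group and had the lowest mean TMM CPM sum, 2.76 ± 0.521 (SD, n = 3). Pancreas had 17 member counts in 12 libraries, and 6 of these libraries had none. A count of 3 over all pancreas libraries would equal 1.04 raw CPM, so single members could not be measured there.

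**Figure D2:**
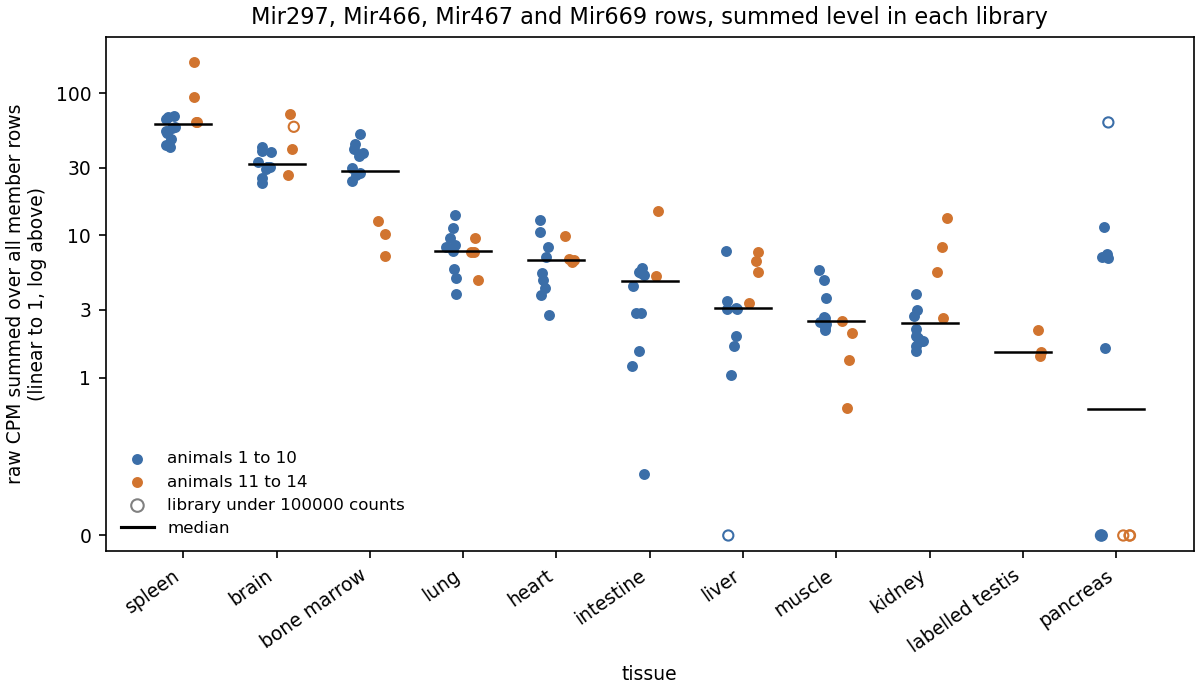
Raw CPM summed over the 81 rows (vertical axis, linear to 1 and logarithmic above) in each library, by tissue (horizontal axis). Points are libraries coloured by animal set, open points are libraries under 100000 counts and bars are medians; spleen has the highest median, 60.4, and the bone marrow libraries of animals 11 to 14, from 7.17 to 12.6, lie below those of animals 1 to 10.

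Facts of the whole set of libraries limit these values. Totals ran from 10255 to 34095704 counts and 8 libraries held fewer than 100000, of which 6 were pancreas. Marker miRNAs of each tissue were highest in that tissue except in 2 cases. The bone marrow markers Mir223 and Mir142 were highest in spleen as a sum. The testis markers, miRNAs of an X-linked cluster, had 4 counts in the libraries labelled testis and were highest in heart, so that label had no support from them. In the sum, spleen led in 12 of 14 animals on the raw scale. The exceptions were animal 3, whose pancreas library gave 62.4 raw CPM from 2 counts, and animal 12, whose brain library gave 71.6 from 18 counts.

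The 3 most counted rows were high in each spleen library. Mir467e had 41 to 176 counts in spleen with a median of 100.5, Mir669c 42 to 186 with a median of 86.0, and Mir467c 36 to 136 with a median of 79.0. The highest TMM CPM of each row came from Spleen 11, with 25.5 for Mir467e, 20.01 for Mir467c and 17.8 for Mir669c, from 70, 55 and 49 counts. The lowest spleen values were 3.77, 3.13 and 2.89. The level was therefore not set by 1 animal, but Spleen 11, with 2113995 counts in all, stood above the other 13 libraries.

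In the test of each tissue against the mean of the other 10, all 17 members that could be tested were called higher in spleen. A call needed an adjusted p below 0.05 (edgeR quasi-likelihood test, Benjamini-Hochberg) and a log2 fold change of at least 1. Over all 1268 genes tested, 20.4% were called higher in spleen. The 17 fold changes ran from 2.56 to 3.95 on the log2 scale with a median of 3.41, beside a median of -0.03 over all genes tested. The filter on low counts kept a row that was high enough in as many libraries as the smallest group has, of any tissue. Rows low everywhere but in spleen could pass through spleen alone and then had to differ, so the 17 do not stand for the 81. Fits without 1 library labelled testis make the smallest group smaller, so they also change the filter. With the filter computed on the other 10 tissues, 9 members passed and 9 were higher in spleen (background 20.8%), and with no filter 33 of the 58 rows with a count were higher (background 12.1%). The first of these alternatives was chosen after seeing the data. With unscaled library totals, the median of all genes tested in spleen moved to 0.71, and 41.9% of genes were called higher and 8.20% lower, against 20.4% and 14.4% with TMM scaling; the 17 members stayed higher.

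The size of the spleen difference varied among members. Mir669e had the largest, 3.95 ± 0.389 (log2, SE; adjusted p = 2.98e-16, edgeR), from 141 spleen counts and 1 to 25 per library. Each SE of a log2 fold change is its absolute value divided by the square root of the F statistic of the same test. It therefore holds no information beyond that test. Mir297a-4 followed with 3.82 ± 0.390 (adjusted p = 1.74e-15), from 134 spleen counts. Mir669b had 3.74 ± 0.336 (adjusted p = 1.54e-18), with 5 to 37 counts in each spleen library. Mir669c, the most counted row, had the smallest, 2.56 ± 0.242 (adjusted p = 1.20e-17). Mir669e and Mir297a-4 passed the filter through spleen and not when it was computed on the other 10 tissues, so their size is partly set by that choice. Mir669 rows stood at both ends, since Mir669o and Mir669d-2 were next after Mir669c from the low end.

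The other members of the 12 most counted rows lay between these. Mir467d rose by 3.54 ± 0.296, Mir466n by 3.58 ± 0.360, Mir669m-1 by 3.52 ± 0.350 and Mir669d by 3.41 ± 0.339 (log2, SE). Mir467e rose by 3.33 ± 0.311, Mir466d by 3.15 ± 0.325 and Mir467c by 3.15 ± 0.302. Mir669m-2 rose by 3.02 ± 0.323, Mir669d-2 by 2.95 ± 0.352 and Mir669o by 2.77 ± 0.282. Their adjusted p-values (edgeR) ran from 1.86e-20 for Mir467d to 2.25e-12 for Mir669d-2. Of these rows, Mir466n, Mir669m-1 and Mir669m-2 passed the filter through spleen and not when it was computed without spleen. Their differences and p-values are therefore partly set by that choice.

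**Figure D3:**
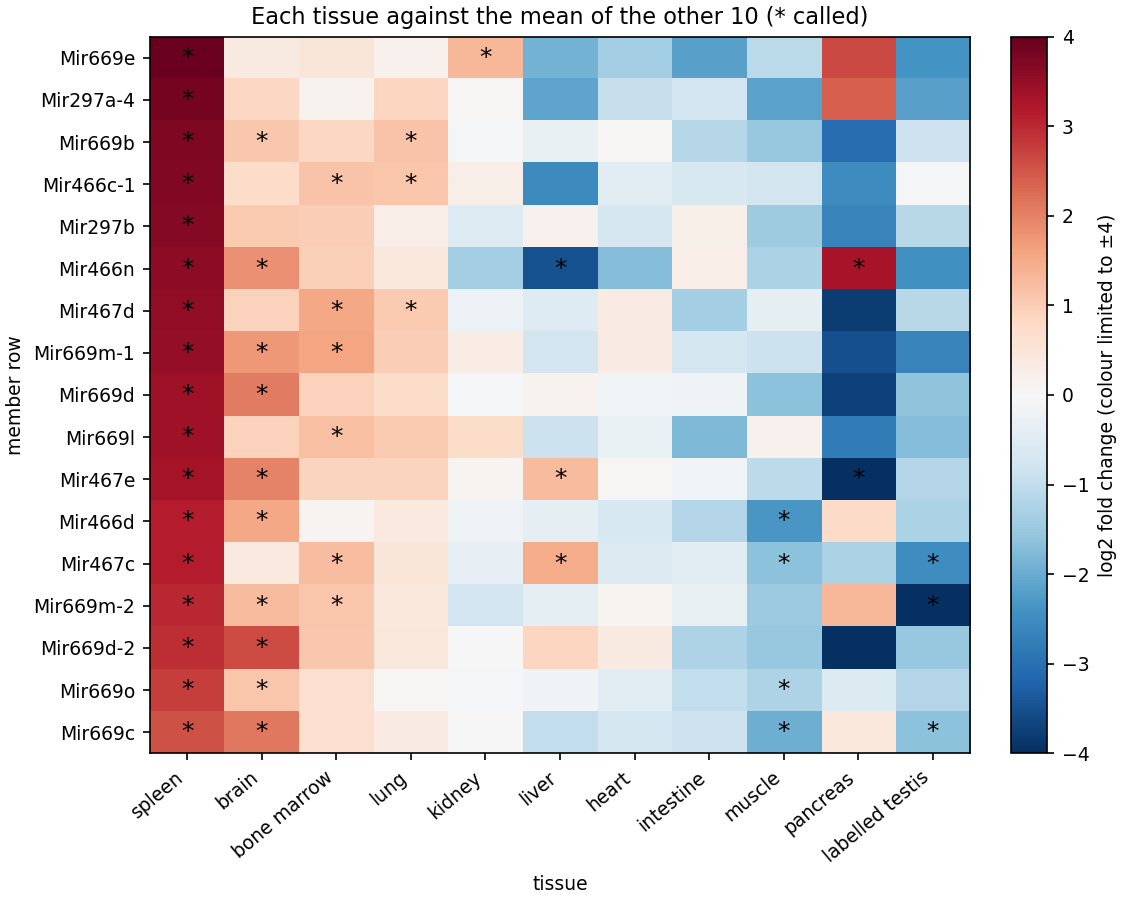
Log2 fold change of each tissue against the mean of the other 10 (colour, limited to 4 in either direction) for the 17 members tested (vertical axis, ordered by spleen) in 11 tissues (horizontal axis). Asterisks mark calls; the spleen column holds 17, the brain column 10, and the pancreas colours rest on 17 member counts.

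By edgeR, 0 members were called in spleen above each of the other 10 tissues taken singly, a stricter rule that 0.473% of genes met; 11 members had an unadjusted p below 0.05 there, and the DESeq2 test called 0. The tissue next to spleen was brain for 8 of the 17 members, pancreas for 4, bone marrow for 3, and liver and lung for 1 each. For Mir467c the smallest difference was 1.52 over liver and for Mir467d it was 1.80 over bone marrow. Under this rule each had an adjusted p of 0.0665, which was set by another tissue than the one just named. For Mir467c that tissue was bone marrow (one-sided p = 3.74e-04, edgeR). For Mir467d it was pancreas (one-sided p = 4.20e-04, edgeR), where the row had 0 counts. Without the pancreas libraries 6 members met the rule (background 1.25%), and without the library labelled testis of animal 11, or that of animal 12, 6 met it (background 1.08%). Of the 6 without pancreas, Mir669e, Mir466c-1, Mir297b and Mir297a-4 did not pass the filter when it was computed without spleen. Nor did Mir669m-1, among the 6 without a library labelled testis. For these rows the result is partly set by passing the filter through spleen.

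Lymphocyte miRNAs were also highest in spleen. Mir150 and Mir155, which mark lymphocytes, summed to 5559 TMM CPM in spleen (2947 to 11637) against means from 44.0 in liver to 700 in bone marrow, and both were in the table. Brain, second for the member sum, had 280 (49.4 to 480). The part of lymphocyte content in the member levels was not tested.

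Brain was the tissue with the next most calls. Of the 17 members, 10 were higher in brain, beside 36.7% of all genes, and 16 with unscaled totals (background 46.7%). Without the pool term 16 were also higher, at a nearly unchanged share of all genes. In the main fit the median log2 fold change of the 17 members in brain was 1.12. It was 0.14 over all genes tested and 1.36 over the other miRNA rows tested, so the members did not exceed other miRNAs there. Mir669d-2 differed by 2.60 ± 0.430 (log2, SE; adjusted p = 5.47e-08, edgeR), Mir669c by 2.12 ± 0.284 (adjusted p = 3.71e-11) and Mir669d by 2.08 ± 0.456 (adjusted p = 3.12e-05). Mir669c had 450 counts in brain, from 0 to 65 per library with a median of 33.0, and was at 0 in 1 library. Its TMM CPM was 6.87 ± 5.90 (SD, n = 14) in brain and 7.10 ± 4.05 (SD, n = 14) in spleen, and the ranges overlapped. The highest brain value, 24.7, came from Brain 10, a library of 592837 counts. The modelled difference between spleen and brain was 0.39 for Mir669c (one-sided p = 0.165, edgeR) and 0.32 for Mir669d-2 (one-sided p = 0.273), so these rows were not shown to differ between the pair of tissues. For Mir467c it was 2.5002 (one-sided p = 1.03e-06), with TMM CPM of 6.51 ± 4.53 (SD, n = 14) in spleen and 1.97 ± 2.55 (SD, n = 14) in brain. The highest Mir467c value in brain, 9.88, was 1 count in Brain 11, a library of 17201 counts. The 17 one-sided p-values for spleen over brain are not adjusted.

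Bone marrow had 6 members called higher, beside 28.9% of all genes. Mir669m-1 differed by 1.59 ± 0.431 (log2, SE; adjusted p = 9.08e-04, edgeR), Mir467d by 1.55 ± 0.366 (adjusted p = 1.32e-04) and Mir467c by 1.22 ± 0.365 (adjusted p = 0.00260). Mir467c had 402 counts there, 4 to 74 per library with a median of 27.5, and was present in each of the 12 libraries. The count of calls depended on scaling: with DESeq2 size factors 15 were higher (background 47.4%) and with unscaled totals 15 (background 51.0%), where the median of all genes moved from 0.27 to 0.94 and 1.11. The calls in bone marrow are thus relative to a centre that moves with the scaling. They also depended on the pool term: without it more members were called, at a nearly unchanged share of all genes. In pool N541 alone fewer were called, among fewer members tested.

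Lung had 3 calls, beside 17.4% of all genes: Mir669b at 1.15 ± 0.419, Mir466c-1 at 1.12 ± 0.434 and Mir467d at 1.05 ± 0.368 (log2, SE; adjusted p from 0.0156 to 0.0330, edgeR). Mir467d had 103 counts in lung, 0 to 22 per library. None of the 3 was called with DESeq2 size factors, and the DESeq2 test gave fold changes below 0 for them. Without the library labelled testis of animal 11, or that of animal 12, 12 members were called higher in lung (backgrounds 31.3% and 31.7%), and without Liver 4 there were 6 (background 20.6%). In kidney only Mir669e was called higher (background 14.3%), at 1.33 ± 0.520 (adjusted p = 0.0313), from 7 counts in 14 libraries. Heart had 0 members called higher (background 12.1%) or lower (background 17.6%) by edgeR, with 1 at an unadjusted p below 0.05, and the DESeq2 test called 8 lower (background 36.6%). Intestine had 0 called higher by edgeR (background 34.7%), with 3 at an unadjusted p below 0.05 in either direction, and the DESeq2 test called 4 lower (background 8.83%).

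The liver calls came from 1 library. Mir467c and Mir467e were called higher in liver (background 11.2%), at 1.48 ± 0.425 and 1.25 ± 0.482 (log2, SE). Each had 55 liver counts, of which 49 of Mir467c and 48 of Mir467e were in Liver 4. The other 12 liver libraries held 6 and 7 counts, at most 2 in any of them. Liver 4 was also the deepest liver library, with 13406435 counts, and 97 of its 105 member counts were in these rows. Without Liver 4 the log2 fold changes were -0.9996 for Mir467c and -1.003 for Mir467e, with adjusted p-values of 0.190 and 1 (edgeR).

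Muscle had 4 members lower, beside 10.8% of all genes, and 16 in the DESeq2 test (background 25.0%). Mir466d fell by 2.31 (SE 0.567) on the log2 scale with 5 counts in 14 libraries, and Mir669c fell by 1.95 (SE 0.342) with 51 counts. Mir467c fell by 1.66 (SE 0.468) and Mir669o fell by 1.23 (SE 0.403), with adjusted p-values (edgeR) from 4.87e-07 to 0.00903 over the 4 rows. In the libraries labelled testis 3 members were lower (background 6.86%), and 1 without the library of animal 11 or that of animal 13. The DESeq2 test called 13 lower there (background 13.8%). Mir467c had 15 counts there and fell by 2.49 (SE 0.728), and Mir669c had 37 counts and fell by 1.63 (SE 0.554). Mir669m-2 was at 0 in the 3 libraries, where 3 counts over the group would equal 0.0337 raw CPM; its mean over spleen was 1.09 TMM CPM.

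Calls in pancreas and at 0 counts carry little depth. Mir466n was called higher in pancreas (background 11.3%) from 4 counts in 3 of 12 libraries, 2 of them in Pancreas 3, a library of 32054 counts. Mir467e was called lower in pancreas (background 22.0%) with 0 counts in 12 libraries, where 3 counts over the group would equal 1.04 raw CPM. Mir466n was called lower in liver (background 20.9%) with 0 counts in 13 libraries, where 3 counts over the group would equal 0.0866 raw CPM.

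Mir466q, outside the intron, was distributed differently. Its 139 counts were 53 in muscle, 24 in spleen, 23 in brain, 20 in heart, 9 in lung, 5 in bone marrow, 5 in intestine and 0 in kidney, liver, pancreas and the libraries labelled testis. In muscle it had 0 to 8 counts per library with a median of 3.00 and was present in 13 of 14 libraries, at 0.962 ± 1.03 TMM CPM (SD, n = 14). In spleen it had 0 to 6 counts and 0.119 ± 0.124 TMM CPM. The muscle and spleen libraries overlapped at the low end.

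Mir466q did not pass the filter on low counts, and was singled out after its values were seen. With no filter it was called higher in muscle (log2 fold change 3.61, adjusted p = 2.10e-09, edgeR; background 8.83%) and in heart (2.29, adjusted p = 3.98e-04; background 7.65%). It was also called higher in brain (1.88, adjusted p = 0.00169; background 18.3%) and in spleen (1.13, adjusted p = 0.0372). No intron row with a count was called higher in muscle or heart in that fit.

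The make-up of the member counts, with the libraries of a tissue added together, varied between tissues. In spleen, Mir467e took 16.9% of the member counts (exact 95% interval 16.2 to 17.8), Mir669c 15.4% (14.7 to 16.2) and Mir467c 13.7% (12.99 to 14.5). In brain, Mir669c took 24.6% (22.7 to 26.7) and Mir467c 7.33% (6.18 to 8.63). In bone marrow, Mir467c led with 18.3% (16.7 to 19.99) and Mir466d took 2.32% (1.73 to 3.04), against 5.70% (5.21 to 6.21) in spleen. Mir669 rows made up 54.9% of member counts in brain and 44.2% in bone marrow, and Mir467 rows 29.5% and 40.4%. These intervals cover counting error only, on libraries added together, and the reads carry no molecular identifiers. In liver, Mir467c and Mir467e took 33.3% each (26.2 to 41.1), which rests on Liver 4.

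**Figure D4:**
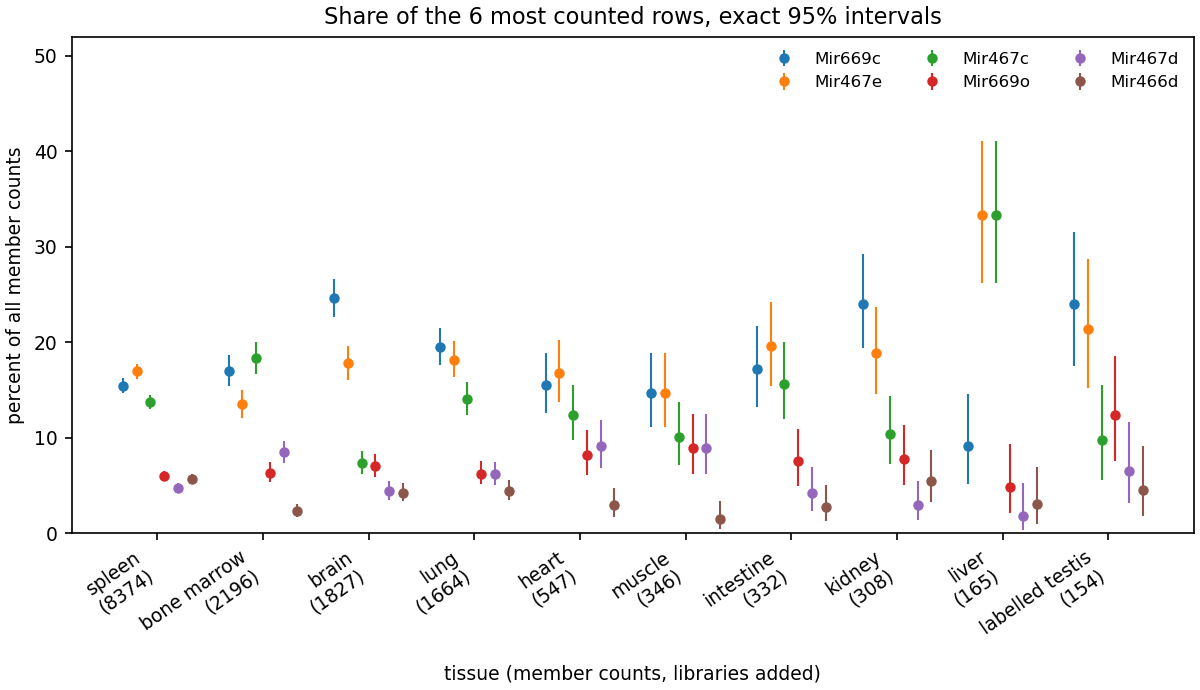
Percent of all member counts held by the 6 most counted rows (vertical axis) in 10 tissues (horizontal axis, with member counts of the added libraries in brackets). Points are shares and bars exact 95% intervals; Mir669c is at 24.6% in brain and 15.4% in spleen, and the liver shares of Mir467c and Mir467e come mostly from Liver 4.

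The member sums were compared between the animal sets in spleen and bone marrow. In spleen the raw CPM sum was 41.6 to 68.8 in animals 1 to 10 and 62.6 to 165 in animals 11 to 14, so the sets overlapped. The TMM CPM sum was 34.1 ± 7.06 (SD, n = 10) and 76.7 ± 34.9 (SD, n = 4), and the sum as CPM over miRNA counts alone was 56.4 to 96.4 and 114 to 201.04, both with no overlap. In bone marrow the raw sum was 24.2 to 51.3 in animals 1 to 9 and 7.17 to 12.6 in animals 11, 13 and 14, with no overlap. The TMM CPM sum was 17.5 ± 2.44 (SD, n = 9) and 9.09 ± 2.65 (SD, n = 3), also with no overlap. Over miRNA counts alone the bone marrow sets overlapped, at 31.2 to 69.4 and 22.8 to 35.9, and 3 of the 9 libraries of animals 1 to 9 lay below the highest of the others. The miRNA share of all counts in bone marrow was 76.0% ± 4.37 (SD, n = 9) in animals 1 to 9 and 34.9% ± 3.44 (SD, n = 3) in the others, against 68.6% ± 8.18 (SD, n = 10) and 63.1% ± 15.1 (SD, n = 4) in the spleen sets. The mean bone marrow sum over miRNA counts alone was 47.0 ± 13.6 (SD, n = 9) and 28.5 ± 6.74 (SD, n = 3). The mean was thus lower in animals 11, 13 and 14 on each of these scales. Only the lack of overlap depended on the scale.

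Single members were tested between the sets in 10 tissues, where 9 members passed the filter of that model. In spleen 8 of the 9 were higher in animals 11 to 14, beside 16.3% of 1029 genes, with Mir467e at 1.84 ± 0.453 (log2, SE; adjusted p = 7.63e-04, edgeR), Mir467c at 1.74 ± 0.467 (adjusted p = 0.00205) and Mir467d at 1.71 ± 0.398 (adjusted p = 4.20e-04). Mir466d, at 0.43, was not called. The calls depended on scaling: 0 of the 9 were called with DESeq2 size factors (background 3.21%) and 1 with unscaled totals (background 5.34%). Without Spleen 11 there were 8 (background 14.0%). In bone marrow 0 members were called by edgeR (background 11.2% lower), 0 had an unadjusted p below 0.05, the DESeq2 test called 0, and 7 were lower with unscaled totals (background 34.8%).

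Blood cell miRNAs differed between the sets as well. In spleen Mir150 was 4015 ± 1340 TMM CPM (SD, n = 10) in animals 1 to 10 and 7963 ± 2357 (SD, n = 4) in animals 11 to 14, and Mir223, a granulocyte and monocyte miRNA, was 491 ± 157 and 280 ± 73.8. In bone marrow Mir223 was 3398 ± 670.3 (SD, n = 9) and 879 ± 112 (SD, n = 3), and the red cell miRNA Mir451a was 19452 ± 9227 and 2377 ± 586. Mir155 in bone marrow was 81.0 ± 32.7 and 29.2 ± 5.34, while Mir150 there was 624 ± 223 and 655 ± 75.1. The part of cell make-up in the member differences was not tested.

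Elsewhere few members were called between the sets. The median log2 fold change of the 9 members was 1.62 in intestine and 1.19 in kidney, beside -1.52 and -1.09 over all genes tested. At most 31 member counts were held by an intestine library of animals 11 to 14 and 9 by a kidney library. In intestine 4 of the 9 had an unadjusted p below 0.05 (edgeR). In spleen the median was 1.62, and in the remaining tissues it ran from -0.89 in muscle to 0.11 in heart. In muscle Mir669b had 6 counts and Mir466d had 5 in the 10 libraries of animals 1 to 10, and both were at 0 in the 4 libraries of animals 11 to 14. There 3 counts over the group would equal 0.0381 raw CPM, beside means of 0.0785 and 0.0823 raw CPM in animals 1 to 10. Both were called lower by edgeR (background 10.4%), and the DESeq2 test called 0 members lower between the sets in muscle. Single members were higher in intestine (Mir466d at 3.75 ± 1.16, background 4.28%), kidney (Mir467c at 3.00 ± 0.865, background 5.15%) and lung (Mir467d at 1.45 ± 0.447, background 12.1%). In animals 11 to 14 these calls rest on 3, 7 and 71 counts. The difference between sets depended on tissue for 5 of the 9 members, beside 53.4% of all genes.

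Other miRNA rows inside Sfmbt2 had few counts. There were 48 such rows with names outside the 4 families, and they held 318 counts, 286 of them in Gm25285, which RefSeq also lists as Mir466c-3. Gm25285 had 155 counts in spleen, 3 to 21 per library, and was higher there by 3.53 ± 0.376 (log2, SE; adjusted p = 1.22e-14, edgeR). It followed the intron members although its name lies outside the rule.

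By the Spearman correlation of tissue means over 11 tissues, the miRNA rows outside the families that were most like the member sum were Gm25285 (rho 0.973), Mir760 (0.920), Mir7237 (0.918), Mir301 (0.891) and Mir449a (0.882). These are descriptions of 11 points that share libraries and scaling. Their levels did not follow the members in size: Mir760 had 9.34 TMM CPM in brain and 0.135 in spleen. Gm25285 had 0.811 ± 0.401 TMM CPM (SD, n = 14) in spleen and 0.282 in brain.

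Other clusters of interest were also scarce. The embryonic stem cell miRNAs of the Mir290 to Mir295 and Mir302 clusters had 264 counts over 13 rows, 85 of them in the libraries labelled testis, 70 in liver and 28 in spleen. Of these, 1 row passed the filter, and it was not called in spleen. The X-linked testis cluster had 1727 counts over 17 rows, 1053 of them in heart and 56 in spleen, and neither of the 2 rows tested was called higher in spleen.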

How the data were processed

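Per the labels' protocols, RNA of RNAlater-kept tissue was purified by miRNeasy, made into TruSeq small RNA libraries and read from 1 end on a NextSeq. The authors deposited raw counts, not normalized, with a column for each library and a row for each small RNA gene. STAR 2.5.1 and featureCounts with mm10/GRCm38 are named per the submitters' processing notes. The strand setting and the handling of multi-mapping reads are not stated in those notes as given here. Of the 134 columns, 131 matched 1 sample by name; the 3 testis columns matched an animal only, and their pool was taken to be N541. Positions are from GENCODE M21 (GRCm38). The series' other libraries were not analysed here.

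Genes passing filterByExpr by tissue (minimum count 10) were scaled by TMM (factors 0.1985 to 5.884) and fitted in edgeR 4.0.16 (R 4.3.3, limma 3.58.1) with terms for tissue and pool, using its quasi-likelihood F test; p-values were adjusted over all 1268 genes tested. The animal sets were compared in a model of tissue by set. DESeq2 1.42.0 was an alternative. Animals gave several tissues each, per the labels, so replicate numbers pair samples; the mean correlation of deviations was 0.0625 over 583 same-animal pairs and -0.00828 over 4166 other pairs. The edgeR script was tested on simulated data. Genes named are the 12 most counted members, per tissue the 3 called members with the largest fold change, the animal set calls up to 3 per tissue, and the 5 most like rows; Mir466q, Gm25285 and further rows were named after their values were seen. The members and lists were chosen with earlier results of these data known.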

Additional observations from a re-analysis of the deposited data

Results flagged for a closer look

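In 17 groups of 4 to 10 libraries of 1 tissue and animal set, the raw CPM sum of the members was searched for a library far from the others, which chance alone gives in about 1 group in 20. Among heart libraries of animals 11 to 14, Heart 14 stood apart at 9.90. Among liver libraries of animals 1 to 10, Liver 4 stood apart at 7.83, from 105 member counts. Among pancreas libraries of animals 1 to 10, Pancreas 3 stood apart at 62.4, from 2 counts in a library of 32054.

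The difference between animals 11 to 14 and animals 1 to 10 differed among the 10 tissues for 5 members by the interaction test (edgeR, adjusted over 1029 genes). The adjusted p was 0.00462 for Mir669b, 0.00638 for Mir467d, 0.00664 for Mir466d, 0.00790 for Mir467c and 0.0178 for Mir669d-2. Of all genes tested, 53.4% passed this test, so 5 of the 9 members tested is near the share of all genes.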

How the results depend on the processing

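The calls in spleen kept their direction and threshold in each of the 282 comparisons in which an alternative tested the member. An alternative whose filter dropped a member is not among them. Of the 17 members, 9 passed the filter computed without spleen. For the rest, the kept calls are partly set by passing the filter through spleen. Of the 32 calls in other tissues, 25 lost their call under at least 1 alternative. The cause of the changes below was not tested. Counts of members are given as under the alternative, with the main count in brackets, and for the larger counts the share of all genes called is added.

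DESeq2 size factors gave 15 (6) higher in bone marrow (47.4% of all genes), 0 (1) in kidney, 0 (2) in liver and 0 (3) in lung, 2 (1) lower in liver, and 0 (8) higher in spleen of animals 11 to 14. Unscaled totals gave 15 higher in bone marrow (51.0%), 16 (10) in brain (46.7%), 0 in kidney and 0 in liver, and lower 3 (0) in intestine, 3 (0) in kidney, 2 in liver and 0 (1) in pancreas; between animal sets they gave 7 (0) lower in bone marrow, 0 (1) higher in lung and 1 (8) higher in spleen. The DESeq2 test gave 10 higher in bone marrow (38.6% of all genes), 0 in kidney, liver and lung and 16 (1) in pancreas (49.4%). It gave 8 (0) lower in heart (36.6%), 4 (0) in intestine (8.83%), 1 (0) in kidney (31.1%), 2 (0) in lung (38.4%), 16 (4) in muscle (25.0%), 0 (1) in pancreas and 13 (3) in testis (13.8%), and for animal sets 2 (1) higher in kidney, 0 (2) lower in muscle and 0 higher in spleen. In that test the log2 fold change turned to -0.28 for Mir669b, -0.59 for Mir466c-1 and -0.17 for Mir467d in lung, and to 0.56 for Mir467e in pancreas.

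With no filter, 33 (17) members differed among tissues and 33 were higher in spleen, 1 (0) in heart, 1 (0) in muscle and 1 (2) in liver, and 0 (1) were lower in liver and pancreas; the animal sets gave 1 (0) lower in bone marrow, 1 (0) higher in liver, 0 (1) higher in lung, 0 (2) lower in muscle and 5 (8) higher in spleen. A minimum count of 5 gave 1 higher in heart, 1 in muscle, 2 (0) specific to spleen, and for the sets 2 (1) higher in intestine and 1 (0) in liver. The filter computed without spleen gave 9 differing among tissues, 9 higher in spleen, 2 in bone marrow, 4 in brain, 0 in kidney, 5 (3) in lung and 0 (1) in pancreas, 3 lower in intestine, 0 in liver and 1 (3) in testis, and 3 (0) specific to spleen.

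With the animal as replicate block, the paired fit gave 1 (0) lower in intestine, 0 (2) higher in liver and 1 (0) specific to spleen, and moved no other count by over 1.5 times. With no pool term, 13 were higher in bone marrow (28.7% of all genes), 16 in brain (37.5%), 0 in kidney, 0 in liver and 0 in lung, and 1 lower in intestine (12.9%) and 2 in liver (16.8%). In animals 1 to 10 alone, 11 differed among tissues, and 11 were higher in spleen (23.0% of all genes), 10 in bone marrow (25.5%), 1 in heart, 0 in kidney, 0 in liver and 0 in lung; lower were 2 in intestine, 1 in kidney, 2 in liver and 2 in muscle. In pool N541 alone, 8 of 8 tested differed and 8 were higher in spleen (28.2%), 3 in brain (32.4%) and 0 in bone marrow, kidney, liver, lung and pancreas, and 0 were lower in liver, muscle, pancreas and testis.

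Without libraries under 100000 counts, 1 was higher in heart, 1 in liver, 7 in lung (20.4% of all genes), 1 in muscle and 0 in pancreas, and 3 lower in intestine, with 2 higher in intestine and 1 in liver between sets. Without all pancreas libraries, 1 was higher in heart, 1 in liver and 1 in muscle, 9 lower in intestine (19.0%), 0 in liver and 9 in muscle (14.8%), and 6 were specific to spleen. Without Pancreas 11, 1 (2) was lower in muscle between sets. Without Liver 4, 0 were higher in liver and 6 in lung, 3 lower in intestine and 1 specific to spleen; between sets 1 (0) was lower in brain, 2 higher in intestine and 1 lower in muscle, and the log2 fold changes in liver turned to -0.9996 for Mir467c and -1.003 for Mir467e. Without 1 of the 3 testis replicates at a time, counts ran from 1 to 1 higher in heart, 1 to 2 in liver, 3 to 12 in lung and 1 to 1 in muscle, 0 to 3 lower in intestine and 1 to 2 in testis, and 0 to 6 specific to spleen; the pair of libraries left were then the group.

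Scaled to miRNA counts alone in place of all counts, the member sum in CPM was 100.2 in spleen, 43.5 in brain, 42.4 in bone marrow, 10.8 in lung, 10.3 in pancreas and 3.44 in testis. As raw CPM it was 37.1 in brain, 29.0 in bone marrow and 1.70 in testis. Without Mir669c it was 2.12 TMM CPM in testis. Spleen had the highest mean on each of these scales. Pancreas depth limits all comparisons with it.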
